A study of Mus musculus with 2 samples.

Results

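Palindromic E-boxes, exact matches to CACGTG, were looked for under the peaks of CHOP in mouse liver. A peak was counted when the mm10 sequence within 50 bp either side of its summit held the hexamer. This was so for 477 of the 14157 deposited peaks (3.37%, 95% Wilson interval 3.08 to 3.68%). Of these, 341 were promoter peaks, whose summit was at most 1 kb from a protein-coding start site of GENCODE M21, and 136 were distal. Promoter peaks held an E-box in 5.41% of 6306 cases (4.88 to 5.99%) and distal peaks in 1.73% of 7851 (1.47 to 2.05%).

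CHOP, the product of Ddit3, is a C/EBP-family transcription factor made under stress of the endoplasmic reticulum. Livers came from wild-type (WT) mice given tunicamycin, which blocks N-linked glycosylation, intraperitoneally at 1 mg/kg for 8 h. The immunoprecipitated library was 1 pool of 3 mice made with the B-3 antibody against CHOP, and 1 input library carries the same labels. No untreated animal, no animal without CHOP and no replicate library was analysed here. The errors below therefore run over peaks of 1 library and not over animals. Liver holds several cell types, and a peak in whole tissue does not show in which of them the chromatin was bound. Among lists of known markers, 4 of 17 hepatocyte genes and 1 of 21 genes of other liver cells had a promoter peak, against 27.9% of all protein-coding genes.

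The palindromic E-box is the classic site of basic helix-loop-helix factors, among them MYC with MAX, USF1 and USF2, the CLOCK and BMAL1 pair, and TFEB, which drives lysosomal genes through an E-box extended by an AC (the CLEAR element). These proteins bind as dimers, each partner reading one side of the palindrome. CHOP is a leucine-zipper protein, and the sites known for it in its dimers with C/EBP or ATF proteins are of another kind.

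The sequences that carry the result are shown first, as 26 bases with the E-box in capitals, for 8 of the 10 promoter peaks of highest fold. Fold is the authors' enrichment at the summit over the local background. Sequence is read 5′ to 3′ from GRCm38.p6 (mm10), on the strand given, and where AC follows the E-box on one strand only, that strand is printed.
Mttp and Trmt10a, chr3:138143774-138143799, plus strand: cctcgccactCACGTGccgtcttcca
Gtf2h1 and Hps5, chr7:46796093-46796118, minus strand: gcgctgagggCACGTGaccggaaacg
Mex3d, chr10:80387753-80387778, minus strand: gcggggcaaaCACGTGactgccggcc
Stt3b, chr9:115310915-115310940, plus strand: gggcgcccgcCACGTGacggggcgcg
Med13l, chr5:118560231-118560256, plus strand: cggcgcccgtCACGTGacgcgccgca
Yaf2, chr15:93336961-93336986, plus strand: tgcctgcgcgCACGTGacccgcgccg
Mthfd1l, chr10:3973724-3973749, plus strand: cgccccgctcCACGTGcaccgcccgc
Siah2, chr3:58692137-58692162, plus strand: gacgctaagaCACGTGtgcggccgac

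Of these 8 runs, 5 read CACGTGAC. Med13l has the AC on both strands. The 3 without it are those of Mttp with Trmt10a, Mthfd1l and Siah2.

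The next sequences are from genes of the pathways known for E-boxes, a lysosomal membrane protein, a proton pump subunit, a lysosomal protease, a pyrimidine synthesis enzyme and a clock repressor, and from 3 distal peaks.
Lamp1, chr8:13159238-13159263, plus strand: cggcactgctCACGTGacaggcgctg
Atp6v1c1, chr15:38661929-38661954, plus strand: ctccggctggCACGTGacttgctctg
Ctsd, chr7:142387910-142387935, minus strand: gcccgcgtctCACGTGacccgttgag
Cad, chr5:31054847-31054872, plus strand: cgcagcgagcCACGTGgaccaactcc
Per1, chr11:69098773-69098798, plus strand: cacccaagtcCACGTGcagggatgtg
distal, nearest Atoh8, chr6:72259524-72259549, plus strand: gtggctgtagCACGTGagcccagggc
distal, nearest Gclc, chr9:77750789-77750814, minus strand: tagcgccggcCACGTGaccatcggcc
distal, nearest Foxo3, chr10:42278279-42278304, plus strand: tttaccagcaCACGTGtgtgttattt

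E-boxes were more frequent at promoter summits than beside them, and at distal summits the difference missed the threshold. A window of the same length centred 500 bp away on the higher-coordinate side held an E-box in 220 peaks (1.55%), against 477 at the summit, a ratio of 2.17. In 475 peaks it was at the summit alone and in 218 in the flank alone (exact McNemar test, two-sided, p = 7.58e-23, adjusted p = 6.07e-22 over 8 hexamers). Tested apart, a step added after seeing the data, promoter peaks had 341 at the summit and 108 in the flank, a ratio of 3.16 (exact McNemar test, p = 1.78e-29). Distal peaks had 136 and 112, a ratio of 1.21 (exact McNemar test, p = 0.144). With the window on the lower-coordinate side the ratios were 2.54 and 1.27 (distal, exact McNemar test, p = 0.0687). Windows of the same length along the genome held one in 0.939%, windows centred on protein-coding start sites in 2.74%, and RefSeq promoters of 300 bp in 7.15%. Genes with a promoter peak had an E-box in 4.03% of their start-site windows and genes without one in 2.04%. Windows of nearby start sites overlap, so the same E-box can count in several.

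The hexamer was set against the 7 others that are palindromes of the same base content with CG in the middle. Of the 8, 5 passed the threshold of an adjusted p of 0.05 (62.5% of those tested). TGCGCA, the core of the C/EBP palindrome, had a higher ratio of summit to flank than the E-box, at 2.30 (396 against 172 peaks), a difference that was not tested. The full palindrome TTGCGCAA was in only 1 peak with an E-box and 18 without, so most TGCGCA matches were not this palindrome. The other 6 hexamers had ratios of 1.23 to 1.60, from CTCGAG to AGCGCT. Excess at summits was thus shared with other CG palindromes. The median fold of the promoter peaks that held each one was 9.74 for CACGTG and 6.03 to 7.02 for the other 7, a description without a test.

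Around promoter summits the E-boxes formed a narrow rise. They occurred at 14.9 per 20 bp per 1000 promoter peaks within 20 bp of the summit, against 4.88 and 4.42 at 200 to 500 bp on the lower and higher side. At distal summits the same values were 3.63, 2.79 and 2.93. Distal E-boxes were densest off the summit, at 5.99 and 6.11 in the bins centred at -90 and 70 bp. The distal bins at -10 and 10 bp held 2.80 and 4.46. All single bins named here, promoter and distal, were picked after seeing the data and carry no test. Most of the rise at promoter summits was in E-boxes followed by AC. These stood at 9.20 within 20 bp of promoter summits and at 0.941 and 0.729 farther out, while the other E-boxes stood at 5.71, 3.94 and 3.69.

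**Figure D1:**
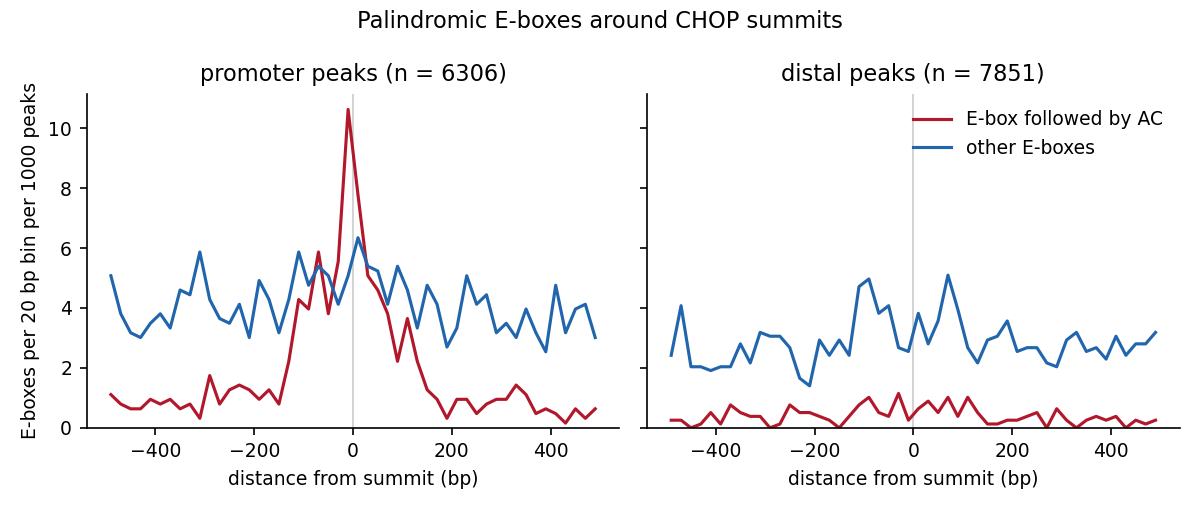
E-boxes per 20 bp bin per 1000 peaks (vertical axis) by distance from the summit in bp (horizontal axis), for 6306 promoter peaks (left) and 7851 distal peaks (right). Red lines are E-boxes followed by AC on either strand and blue lines all others. The red line rises at promoter summits, where it averages 9.20 within 20 bp, and stays low at distal ones, at 0.446. The blue line of distal peaks is highest off the summit, at 5.09 in the bin centred at 70 bp.

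Over all 503 E-boxes under the peaks, AC followed on at least one strand in 203 of 363 at promoters (55.9%, 95% Wilson interval 50.8 to 60.9%) and in 27 of 140 at distal peaks (19.3%, 13.6 to 26.6%). In the windows 500 and 1000 bp to either side of the summits it followed 104 of 862 E-boxes (12.1%), and 63 of 459 (13.7%) beside promoter peaks. At start sites it followed 432 of 802 E-boxes of genes with a promoter peak (53.9%) and 171 of 714 of genes without one (24.0%). In these start-site counts an E-box near several start sites was counted for each of them, so they are not distinct E-boxes. The flanking bases were read by plan, but the AC class was singled out after they were seen and is given without a test.

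The E-boxes took 111 different forms when read with 2 bases on either side. The most frequent were GCCACGTGAC in 34 E-boxes, CCCACGTGAC in 31, CTCACGTGAC in 29, the full palindrome GTCACGTGAC in 25, GGCACGTGAC in 24 and ACCACGTGAC in 20. All of these end in AC. Among the 230 E-boxes with AC, the base after it was C in 53.0%, G in 19.1%, T in 14.3% and A in 13.5%.

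Promoter peaks with an E-box were higher than other promoter peaks. Their median fold was 9.74 (interquartile range 6.45 to 15.1, range 3.52 to 83.8) on a median of 20 reads at the summit, against 6.56 (5.24 to 8.95) and 13 reads in the other 5965. Their median width was 444 bp against 346 bp. A fold of 20 or more was reached by 42 of 341 (12.3%) and by 232 of the others (3.89%). Read counts at the summit were solved from the authors' fold and p, and the intervals given for single folds are exact Poisson 95% intervals that cover counting error only.

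Distal peaks with an E-box had a median fold of 6.35 (5.25 to 8.77) on 9 reads, against 6.75 and 9 reads in the other 7715. The median local background was 0.421 reads in distal peaks with an E-box and 0.353 in the others. A fold of 20 or more was reached by 3 of 136 (2.21%) and by 574 of the others (7.44%). At the 75th percentile the fold was 15.1 in promoter peaks with an E-box, 8.95 in promoter peaks without, 8.77 in distal peaks with one and 9.75 in distal peaks without. At the 99th percentile the distal peaks without an E-box stood highest, at 59.2, against 36.9, 36.0 and 22.5 in promoter peaks with and without one and in distal peaks with one.

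**Figure D2:**
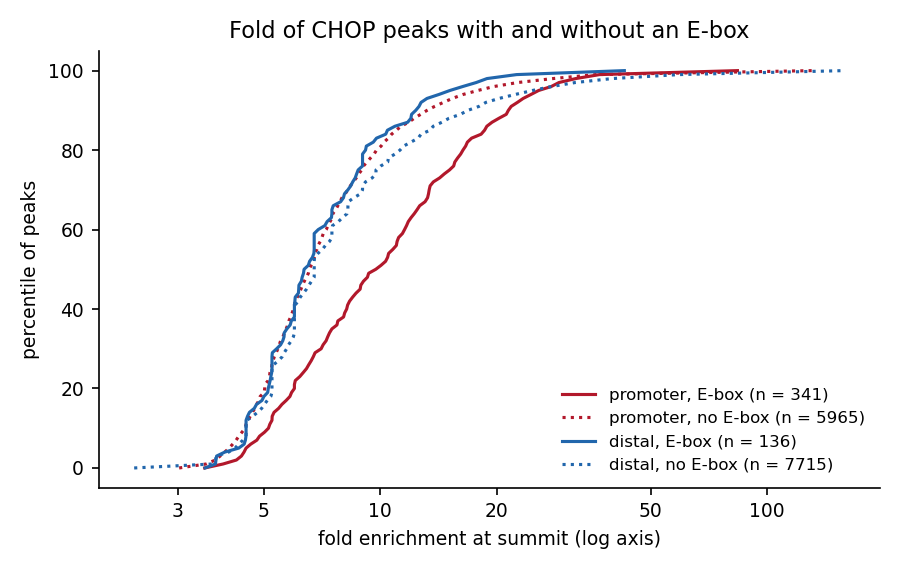
Percentile of peaks (vertical axis) by fold enrichment at the summit (horizontal axis, log scale). Lines are promoter peaks (red) and distal peaks (blue) with an E-box (solid) and without (dotted). The solid red line crosses its median at 9.74, and the other 3 lines cross theirs between 6.35 and 6.75.

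A linear fit of log2 fold across all 14157 peaks, with class as a covariate and errors robust to unequal variance (HC3), gave an E-box term of 0.30 ± 0.04 (SE, n = 14157 peaks, p = 2.59e-15), which is 1.23 times. Fitted among promoter peaks alone, a step added after seeing the data, the term was 0.49 ± 0.04 (n = 6306 peaks, p = 6.96e-28), which is 1.40 times (95% interval 1.32 to 1.49). It was 0.48 with the GC share and CpG count within 200 bp of the summit as covariates, and 0.55 among the peaks within 100 bp of a start site.

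Among distal peaks alone the term was -0.16 ± 0.05 (n = 7851 peaks, p = 0.00182), which is 0.893 times. It was -0.12 with base composition in the fit (n = 7851 peaks, p = 0.0275). It missed the threshold without peaks whose summit lies in repeat-masked sequence, at -0.07 ± 0.06 (n = 4548 peaks, p = 0.249). Summits in masked sequence made up 29.4% of distal peaks with an E-box and 42.3% of those without. The term for the difference between the 2 classes, also added after seeing the data, was 0.65 ± 0.07 (n = 14157 peaks, p = 3.64e-21), and 0.62 with base composition.

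Within promoter peaks the E-box share was uneven along the range of fold. The peaks were ranked by fold and divided into 10 bins of about 630 peaks, a division chosen after seeing the data. An E-box was in 2.38 to 4.76% of the peaks of each of the 8 lower bins, in 11.6% of the next, which spans folds of 10.2 to 13.8, and in 14.9% of the highest. With AC the shares were 0.634% in the lowest bin and 7.94% and 11.9% in the highest 2.

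**Figure D3:**
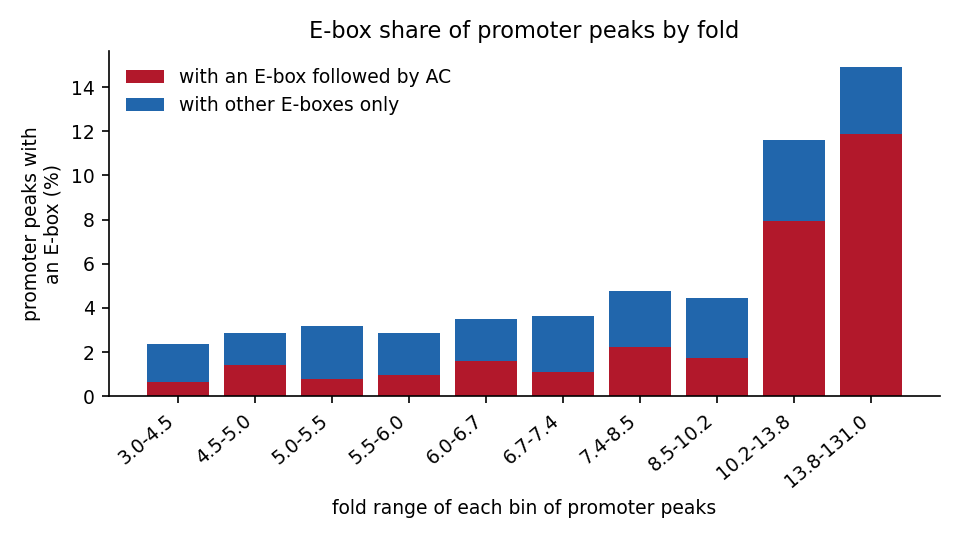
Share of promoter peaks with an E-box in percent (vertical axis, from 0) in each of 10 bins of peaks ranked by fold (horizontal axis, fold range of each bin). Red is the share with an E-box followed by AC and blue the share with other E-boxes only. The 2 highest bins stand at 11.6% and 14.9%, and the other 8 at or below 4.76%.

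The same division showed between members. The 191 promoter peaks whose E-box had the AC had a median fold of 12.4 (8.19 to 16.8) and 26 reads, and 34 of them (17.8%) reached a fold of 20. The 150 without it had a median of 7.41 (5.70 to 10.6) and 14 reads, and 8 (5.33%) reached 20. At distal peaks the medians were 8.25 with AC in 27 peaks and 6.29 without it in 109. These values rest on a class chosen after the data were seen and carry no test.

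Members with several E-boxes were few. In all, 452 peaks held 1, 24 held 2 and 1 held 3. The 21 promoter peaks with 2 or more had a median fold of 16.7 (range 4.71 to 29.1), and the 320 with 1 had 9.32, again without a test. The single peak with 3 lay at Amdhd2, an enzyme of amino sugar breakdown, with a fold of 7.33. Pairs 6 or 7 bases apart, the spacing of tandem E-boxes known from clock genes, were found at 1 peak, that of Gm42791 with 7 bases between them and a fold of 19.5. The gap within the 25 peaks with 2 or more had a median of 16 bases (2 to 77). The whole windows of 2 such promoters, chosen after their values were seen, and that of Gm42791 show how the pairs lie, on the plus strand.
Sppl3, chr5:115011033-115011133: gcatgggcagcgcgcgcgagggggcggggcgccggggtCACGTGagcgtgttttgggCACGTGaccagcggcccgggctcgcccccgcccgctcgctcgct
Sirt1, chr10:63339051-63339151: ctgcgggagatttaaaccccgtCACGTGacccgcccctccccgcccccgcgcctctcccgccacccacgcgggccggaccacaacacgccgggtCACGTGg
Gm42791, chr5:148995192-148995292: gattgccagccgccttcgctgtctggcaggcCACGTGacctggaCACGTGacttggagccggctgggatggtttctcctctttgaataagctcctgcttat

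Sppl3, an intramembrane protease, had a fold of 29.1, and Sirt1, a protein deacetylase, one of 27.1. Their 2 E-boxes lie 13 and 66 bases apart.

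Members lay closer to gene starts than other promoter peaks. The median distance from summit to start site was 55 bp against 112 bp, and 232 of 341 (68.0%) against 46.9% were within 100 bp. Measured from the E-box itself, 247 of 363 (68.0%) were upstream of the start site, at a median of -25.5 bp, and 239 (65.8%) were within 100 bp of it. Start sites of 2 or more genes were near the summit of 38 members (11.1%) and of 10.5% of other promoter peaks.

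Promoters made up 71.5% of peaks with an E-box and 43.6% of the others, an odds ratio of 3.24 (95% interval 2.65 to 3.97; logistic fit across all peaks, Wald test, n = 14157 peaks, p = 2.75e-30). With the GC share and CpG count within 200 bp of the summit as covariates the odds ratio was 1.47 (1.10 to 1.98, n = 14157 peaks, p = 0.0103). Summit windows with an E-box had a mean GC share of 72.5% at promoters and 56.1% at distal peaks, against 72.0% and 48.1% without. On chromosome X, 3 of 355 peaks (0.845%) were members, the lowest share of the 20 chromosomes with a member. The others ran from 2.25 to 4.33%. Chromosome X was picked out after seeing these shares, without a test or an account of class and GC.

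The E-box peak of highest fold lay between Mttp, needed for the assembly of apolipoprotein B particles, and Trmt10a, which methylates tRNA, at 83.8-fold (69.4 to 100.4, 116 reads). It ranked 40 among all peaks, and its E-box is not followed by AC. Among the others of the 8 shown, which are not consecutive in rank, the peak of Gtf2h1, a subunit of TFIIH, and Hps5, a protein of lysosome-related organelles, stood at 37.4-fold (29.3 to 47.1), with the E-box 36.5 bp from the summit, and ranked 236 among all peaks. These folds are lower than those of the promoters of Cebpg at 131 and Trib3 at 106, both without an E-box.

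The remaining 6 overlap in their intervals. They were those of Mex3d, an RNA-binding protein, at 36.1-fold (28.0 to 45.7), Stt3b, a catalytic subunit of the oligosaccharyltransferase of N-linked glycosylation, at 34.4-fold (27.0 to 43.2), and Med13l, a Mediator kinase-module subunit, at 32.3-fold (25.5 to 40.5). Yaf2, a Polycomb-associated protein, had 31.9-fold, Mthfd1l, an enzyme of mitochondrial one-carbon metabolism, 31.1-fold, and Siah2, a ubiquitin ligase, 29.2-fold. Their summits lay from 63 bp (Mex3d) to 611 bp (Mthfd1l) from the start site.

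Distal members were led by a peak 24006 bp upstream of Atoh8, a basic helix-loop-helix factor, at 42.7-fold (32.5 to 55.3), whose E-box lies 46.5 bp from the summit. Peaks nearest Marcks, an actin-regulating kinase substrate, at 23.2-fold and Ndel1, a dynein regulator, at 17.9-fold were both 310 bp wide with the summit in masked sequence. The peak 3728 bp upstream of Gclc, the rate-limiting enzyme of glutathione synthesis, stood at 21.1-fold (16.3 to 27.0) with the AC. Those nearest Foxo3, a forkhead factor, Hnrnpu, a nuclear RNA-binding protein, Ptma, prothymosin alpha, and St3gal3, a sialyltransferase, had folds of 17.7, 16.9, 15.5 and 15.0. Of the 136 distal summits, 62 were in introns, 56 intergenic, 16 in coding exons and 2 in UTRs. Intergenic here means outside protein-coding transcripts, so noncoding genes can lie there. Distal peaks without an E-box were not placed this way, so these counts have no background share. The median distance to a start site was 14342 bp.

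**Figure D4:**
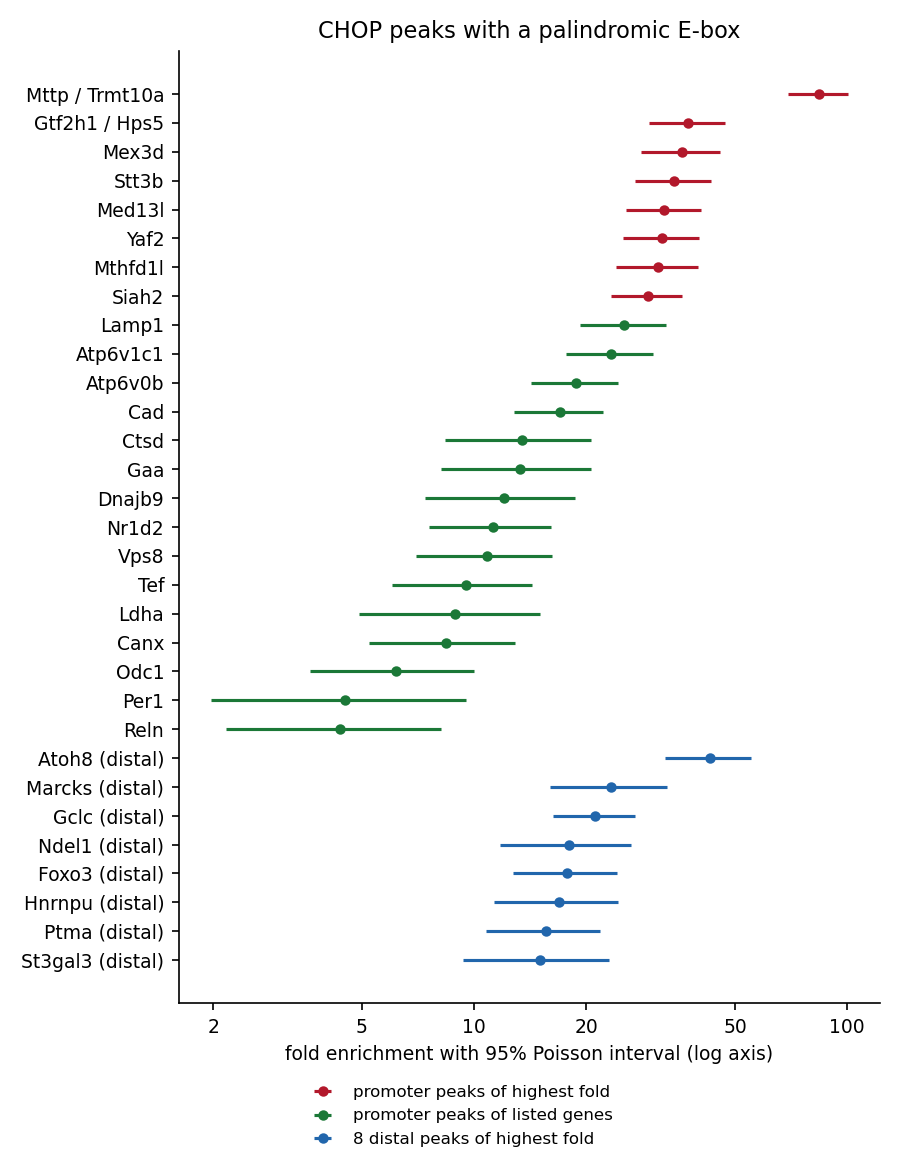
Fold enrichment with its exact Poisson 95% interval (horizontal axis, log scale) for single peaks with an E-box (vertical axis, gene names). Red points are 8 of the 10 promoter peaks of highest fold, green points promoter peaks of listed genes, and blue points the 8 distal peaks of highest fold by their nearest gene. Folds run from 83.8 at Mttp and Trmt10a to 4.38 at Reln, and neighbouring intervals overlap for most.

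By gene, 378 of 21866 protein-coding genes (1.73%) had an E-box promoter peak and 6100 (27.9%) any promoter peak, so 6.20% of the latter had an E-box. Of 1106 genes with an E-box in a start-site window, 539 (48.7%) had a promoter peak, against 26.8% of the other genes. Any start site of a gene could count for either property, so genes with many start sites can score on both, and this was not adjusted for. Gene lists were read against these shares. Of 298 listed genes matched, 16 (5.37%) had an E-box promoter peak. The lists of clock, MYC, lysosomal, proton pump, and USF and ChREBP genes were drawn up around E-box regulation, so their counts are not independent of the motif.

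The lysosome and autophagy genes of the CLEAR network had an E-box promoter peak in 5 of 43, and any promoter peak in 28. Lamp1, a lysosomal membrane glycoprotein, had 25.3-fold (19.2 to 32.7), and Ctsd, cathepsin D, 13.4-fold. Gaa, acid alpha-glucosidase, had 13.3-fold and Vps8, an endosomal tethering subunit, 10.8-fold. The E-boxes of these 4 carry the AC. Mcoln1, the lysosomal calcium channel, named after its value was seen, had a peak of 28.0-fold whose nearest E-box, 69.5 bp from the summit, is outside the window. Of 16 vacuolar proton pump subunits, 2 had an E-box peak and 9 any, Atp6v1c1 at 23.2-fold (17.7 to 30.1) and Atp6v0b at 18.8-fold (14.2 to 24.4), the latter with 2 E-boxes.

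Clock genes and their E-box targets had any promoter peak in 23 of 27 and an E-box one in 3. These were Nr1d2, which encodes the repressor REV-ERB beta, at 11.2-fold (7.59 to 16.05) with 2 E-boxes, Tef, a PAR bZIP factor, at 9.48-fold (6.03 to 14.3), and Per1 at 4.50-fold (1.97 to 9.50) on 5 reads. Per1 also had a higher promoter peak, at 8.999-fold (4.87 to 15.5) on 11 reads, whose nearest E-box, 61.5 bp from the summit, is outside the window. The E-boxes of Tef and of the lower Per1 peak lie 47.5 bp from the summit, at the edge of the window. Per2 at 21.4-fold, Cry1 at 17.6-fold and Bhlhe40 at 16.9-fold, all repressors of the clock, had promoter peaks without an E-box in the window, though that of Cry1 had one 74.5 bp away. Nr1d1 and Dbp had no promoter peak.

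Of 38 MYC target genes of ribosome biogenesis and growth, 21 had a promoter peak and 3 an E-box one. They were Cad, which begins pyrimidine synthesis, at 17.0-fold (12.8 to 22.1), Ldha, lactate dehydrogenase A, at 8.89-fold (4.92 to 15.0), and Odc1, which makes putrescine, at 6.19-fold (3.64 to 9.96). None of the 3 has the AC. Among 28 genes of E-box-binding factors, 20 had a promoter peak and 0 an E-box one, though 3 had an E-box outside the window but within 100 bp of the summit. Usf1 stood at 5.03-fold, Usf2 at 8.67-fold and Tfeb at 5.94-fold, and Myc had no promoter peak. USF and ChREBP genes of glucose and lipid metabolism had 0 of 30 with an E-box peak and 10 with any, and Txnip had none. Beside the share of 6.20% over all genes with a promoter peak, 0 in lists this short does not show a lack of E-boxes.

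Genes of the integrated stress response had any promoter peak in 22 of 28 and an E-box one in 0. Of all genes with a promoter peak 6.20% had an E-box one, so 0 in a list this short does not show a lack of E-boxes. Among the stress response genes Cebpg stood at 131-fold, Trib3 at 106-fold, Ddit3 at 60.9-fold and Ppp1r15a, the phosphatase subunit GADD34, at 40.6-fold. Genes of endoplasmic reticulum folding and degradation had an E-box peak in 2 of 30 and any in 21. These 2 were Dnajb9, a luminal J-domain cochaperone, at 12.0-fold (7.39 to 18.6), and Canx, the lectin chaperone calnexin, at 8.38-fold (5.21 to 12.9). Mitochondrial ribosomal proteins (7 of 28 with any peak) and hepatocyte markers (4 of 17) had 0 with an E-box. The only such peak among markers of other liver cells was that of Reln, a stellate cell marker, at 4.38-fold on 8 reads.

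Other motifs were counted in the same windows, on both strands. Of the 16 motifs that could be fitted, 6 (37.5%) differed in frequency between peaks with and without an E-box (logistic fits across all peaks with class and window GC as covariates, likelihood-ratio test with Benjamini-Hochberg adjustment). Without matches that share bases with the E-box, 3 remained past the threshold, all of them elements common in gene promoters. They were the CCAAT box (CCAAT, odds ratio 1.92, n = 14157 peaks, adjusted p = 0.000253), the ETS site (CCGGAAG, 2.05, adjusted p = 0.00874) and the GC box (GGGCGG, 1.42, adjusted p = 0.0113). At promoters CCAAT was in 13.8% of members and 7.18% of other peaks, and CCGGAAG in 7.04% and 3.96%. The other 3 had overlapped the E-box: TGACG (n = 14157 peaks, adjusted p = 0.778 without overlap), CCACG (0.116) and AGGTCA (0.778).

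The composite element of C/EBP and ATF proteins, TGATGNAA, was no more frequent in members. It was in 5 of 341 promoter members (1.47%) against 1.91% of other promoter peaks, and in 9 of 136 distal members (6.62%) against 9.86% (odds ratio 0.832, n = 14157 peaks, adjusted p = 0.656, likelihood-ratio test). The promoter members with both elements, named after their values were seen, were those of Mthfd1l at 31.1-fold, Aars, alanyl-tRNA synthetase, at 21.7-fold, Gadd45g, a stress-induced growth regulator, at 16.2-fold, Anp32b, a histone chaperone, at 10.7-fold, and Them7 at 5.77-fold. The C/EBP palindrome TTGCGCAA was rare in both groups, in 1 of 477 members and 18 of 13680 other peaks. Counts this small do not show a lack of it in members. A match describes letters in a window and does not show which protein was bound.

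The window edge has no natural break. The 96 peaks whose nearest E-box centre was 37.5 to 47.5 bp from the summit had a median fold of 7.09, and the 85 just outside, at 48.5 to 58.5 bp, had 8.43.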

How the data were processed

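Chromatin immunoprecipitation sequencing gave 1 CHOP library from liver, pooled from 3 mice; the input library enters only as the authors' local background. Per the labels' protocols, Bowtie placed single-end reads on mm10 (at most 2 mismatches), reads stacked over 2 deep were dropped, and MACS2 2.1.2 called the peaks by its defaults after filtering with SAMtools 1.9. The authors deposited for each of 14157 peaks a fold enrichment (a ratio of pileup to local background), −log10 p and −log10 q, a score and the summit offset. No source used here gives the library's total depth.

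Summit reads (median 11, range 4 to 329) were solved from fold and −log10 p with a largest residual of 3.13e-05. Sequence was GRCm38.p6, start sites GENCODE M21. Fits used statsmodels 0.14.6 in Python 3.11.15 with scipy 1.17.1, numpy 2.4.6 and pandas 2.3.3, and were tested on simulated data. In the simulation E-boxes were assigned independently of class with the same effect in both classes, unlike in the peaks here. A total of 19 motifs and 11 gene lists were searched. For a gene name shared by 2 genes, the lower identifier was used. The members and lists were chosen with earlier results of these data known. Genes named are those of the 10 promoter and 8 distal members of highest fold, up to 5 members per list, peaks with 3 E-boxes or with pairs 6 or 7 bases apart, and a fixed set (Per1, Per2, Cry1, Nr1d1, Dbp, Bhlhe40, Myc, Usf1, Usf2, Tfeb, Txnip, Ppp1r15a, Ddit3, Trib3, Cebpg). Of these, 3 peaks are not reported here. Names outside this set are marked as chosen after their values were seen. Alternatives were stricter peak thresholds, other windows, promoter distances, start sites, control windows and covariates, and no masked summits.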

Additional observations from a re-analysis of the deposited data

Results flagged for a closer look

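The E-box term on log2 fold differed between promoter and distal peaks by 0.65 (SE 0.07, n = 14157 peaks, p = 3.64e-21, linear fit across all peaks with an E-box by class term). Promoter peaks with an E-box stood above other promoter peaks (term 0.49) and distal ones slightly below other distal peaks (term -0.16). Without masked summits the distal term missed the threshold (-0.07, linear fit, n = 4548 peaks, p = 0.249). The test was added after seeing the data.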

How the results depend on the processing

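No paired analysis was possible because the immunoprecipitate and the input are 1 library each and no processed file of the input was used here. The number of members depends on the window: 25 bp either side of the summit gave 270 peaks (203 promoter, 67 distal), and 100 bp gave 888 (579 promoter, 309 distal). The ratio of summit to flank over all peaks ranged from 1.95 to 2.62 and the E-box term on log2 fold from 0.26 to 0.36 over thresholds, windows, promoter distances, start sites and covariates, each past the test's threshold. Leaving out motif matches that share bases with the E-box lowered the count of motifs past the threshold from 6 to 3 and turned the log odds ratio of AGGTCA to -0.069. The negative distal term missed the threshold without masked summits (-0.07, n = 4548 peaks, p = 0.249). Many members rest on few reads, with 80 of 136 distal members (58.8%) and 71 of 341 promoter members (20.8%) at 10 or fewer. The shares were 58.2% in other distal peaks and 30.9% in other promoter peaks.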
